A study of Homo sapiens with 2 samples.

Results

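The glycosaminoglycan enzymes described here are 42 genes. Most of their products build, modify and sulfate chondroitin/dermatan sulfate and heparan sulfate chains or make the donors for them. CHST8, known best for acting on glycoprotein hormones, was listed with the chondroitin/dermatan genes. They were taken by name from the 38606 genes of the count table, and every one of them was present there. The genes were split by the step their products catalyse into a linker group of 6, a chondroitin/dermatan group of 17, a heparan group of 15 and a donor supply group of 4.

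The cells were commercially obtained human mesenchymal stem cells from adipose tissue, profiled by 10x single-cell RNA sequencing. The TGFB1 group was 1 culture that was starved overnight, of what the labels do not say, and then given TGFB1 at 10 ng/mL for 24 h. The untreated group was 1 culture that went through the same overnight starvation without TGFB1, and the labels give no duration for it. Each group was 1 library, so no test of the treatment was possible, no p-value was computed, and the intervals below cover counting error in these libraries only.

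The TGFB1 library held 12555 cells and 208991941 unique molecular identifiers (UMIs, each standing for 1 captured RNA molecule), and the untreated library held 8101 cells and 169011524 UMIs. The median cell had 15134 UMIs in TGFB1 and 19249 UMIs in untreated. The labelled cell type was checked on 7 mesenchymal markers (COL1A1, COL1A2, COL3A1, PDGFRB, THY1, NT5E and ENG), all of which were at 5 CPM or more, where CPM is the UMIs of a gene for each 1000000 UMIs of its library, in both libraries. Of other types, 0 of 5 endothelial, 0 of 5 immune, 0 of 4 adipocyte and 0 of 4 osteoblast markers reached 5 CPM in either library, and these lists summed to at most 2.79 CPM in TGFB1 and 4.06 CPM in untreated. The mural list (1 of 6 at 5 CPM, KCNJ8) summed to 31.6 CPM in TGFB1 and 33.4 CPM in untreated, and the chondrocyte list (1 of 5, SOX9) to 23.5 CPM in TGFB1 and 13.7 CPM in untreated. The neural crest or melanocyte list (1 of 4, MITF) summed to 16.7 CPM in TGFB1 and 47.8 CPM in untreated, and the epithelial list (2 of 4, KRT18 and KRT19) to 272 CPM in TGFB1 and 710.1 CPM in untreated. The part of these markers in the results below was not tested. CD3E and ADIPOQ had 0 UMIs in both libraries. The nuclear RNAs MALAT1 and NEAT1 summed to 19748 CPM in TGFB1 and 22141 CPM in untreated. Cells with a UMI of the cycling genes MKI67 or TOP2A made up 7.91% of TGFB1 cells and 17.4% of untreated cells; without them the counts of higher and lower members below were the same. The 2 libraries shared 18 cell barcodes.

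Glycosaminoglycans are long sugar chains carried by proteoglycans, and in mesenchymal tissue they hold water, bind growth factors and organise the matrix. Synthesis in the Golgi starts with a short linker that begins with xylose on a serine of the core protein. The first hexosamine added to the linker sets the branch: N-acetylgalactosamine starts a chondroitin chain, which epimerases turn into dermatan, and N-acetylglucosamine starts a heparan chain. Sulfotransferases then add sulfate at fixed positions of the sugars, using PAPS as the sulfate donor.

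Most glycosaminoglycan enzyme genes were within 1.5-fold between the libraries. Of the 42 genes, 37 averaged at least 5 CPM over both libraries and are called measured. Of these, 9 were at least 1.5-fold higher in TGFB1, which is 24.3% of the measured members, beside 8.15% of all 10579 measured genes. These were XYLT1, CHSY1, CHSY3, CHST8, CHST11, NDST1, HS3ST3A1, HS3ST3B1 and UGDH. A further 4, or 10.8%, were at least 1.5-fold lower in TGFB1, beside 12.9% of all measured genes, a share near the background. These were CSGALNACT1, CHST14, DSEL and GLCE. CHST8 reached the mean of 5 CPM only through the TGFB1 library, where it was high, and CSGALNACT1 only through the untreated library. Both are in these counts and in those of their group below, so neither count is free of that filter. The median log2 ratio of TGFB1 over untreated was -0.01 over the members and -0.10 over all measured genes.

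The medians of all branches lay close to 0. The median log2 ratio was -0.06 in the linker group (5 measured, 1 higher, 0 lower), 0.13 in the chondroitin/dermatan group (16 measured, 4 higher, 3 lower), -0.02 in the heparan group (12 measured, 3 higher, 1 lower) and 0.01 in the donor group (4 measured, 1 higher, 0 lower). Scaling by TMM factors placed 12 members higher and 2 lower, beside 11.5% and 8.83% of all genes, so the split between directions depends on the scaling; the linker and heparan medians were then above 0. The differences between branch medians were not tested.

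**Figure D1:**
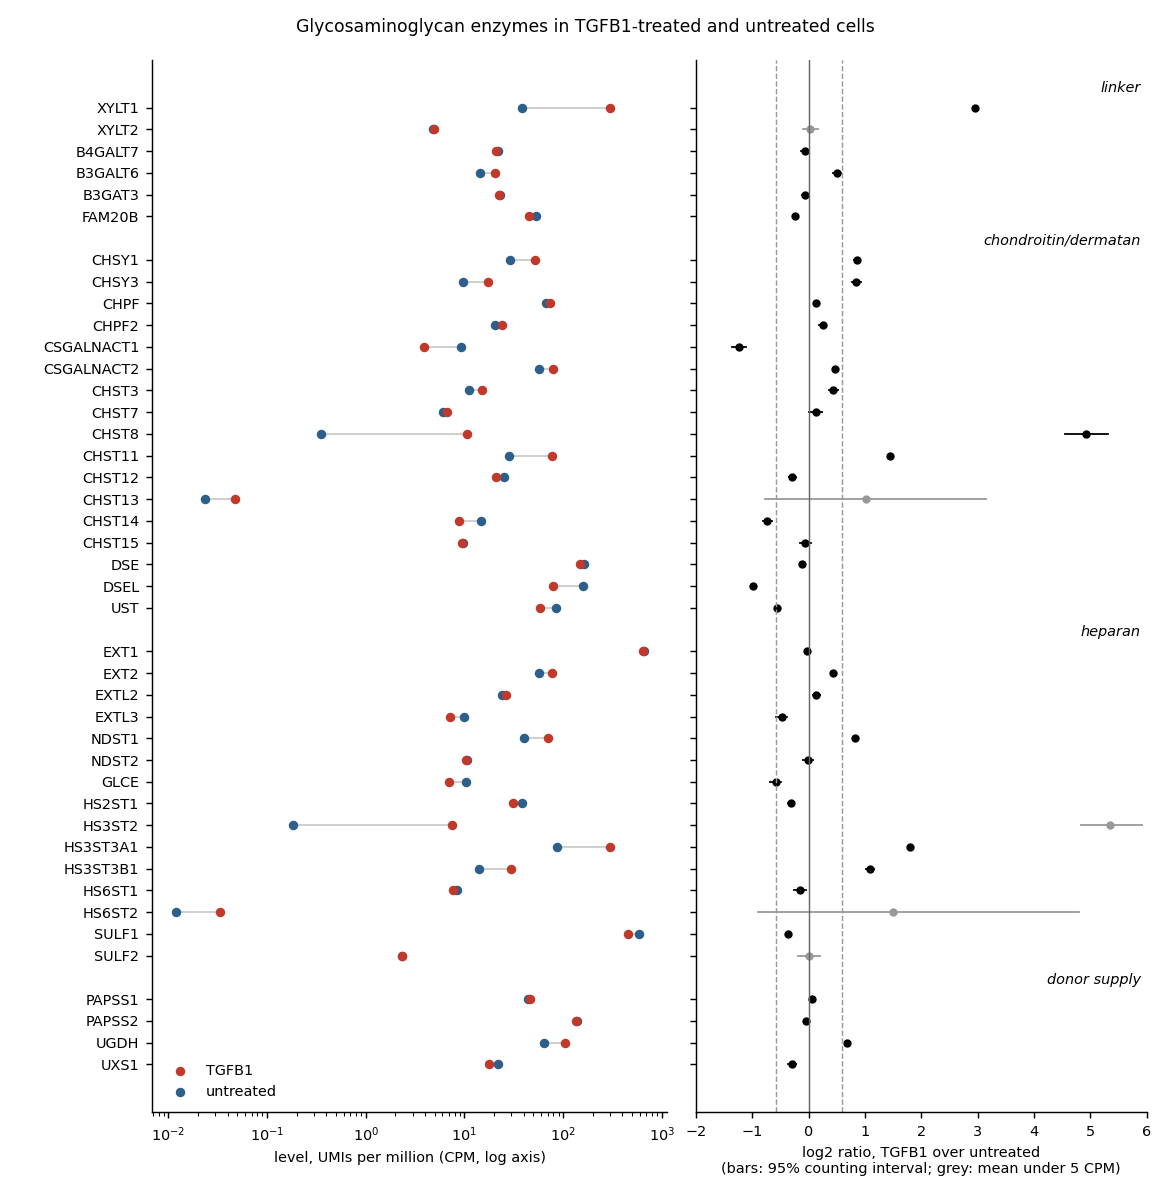
Left, level of each of the 42 genes in the TGFB1 library (red) and the untreated library (blue), in CPM on a log axis. Right, log2 ratio of TGFB1 over untreated with its 95% counting interval, dashed lines at 1.5-fold and genes averaging under 5 CPM in grey; XYLT1, CHST8, HS3ST2 and HS3ST3A1 lie farthest to the right, and CSGALNACT1 and DSEL farthest to the left.

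The promoters of 4 members, chosen with their values known, are shown because XYLT1, CHST11 and HS3ST3A1 were well above their untreated levels in the linker, chondroitin and heparan groups and DSEL was well below. Each runs 5′ to 3′ on the gene's strand from 250 bases before to 50 bases after the RefSeq start (GRCh38.p14). Capitals mark the SMAD box CAGAC, the core site of the transcription factors downstream of TGFB1 receptors, or its reverse complement GTCTG.
XYLT1, chr16:17470911-17471210, minus strand: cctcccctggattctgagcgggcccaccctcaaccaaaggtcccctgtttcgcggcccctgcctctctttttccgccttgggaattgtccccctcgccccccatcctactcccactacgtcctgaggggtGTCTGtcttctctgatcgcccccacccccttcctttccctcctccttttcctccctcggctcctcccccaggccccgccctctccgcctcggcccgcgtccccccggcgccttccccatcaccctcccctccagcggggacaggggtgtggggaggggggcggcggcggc
CHST11, chr12:104456698-104456997, plus strand: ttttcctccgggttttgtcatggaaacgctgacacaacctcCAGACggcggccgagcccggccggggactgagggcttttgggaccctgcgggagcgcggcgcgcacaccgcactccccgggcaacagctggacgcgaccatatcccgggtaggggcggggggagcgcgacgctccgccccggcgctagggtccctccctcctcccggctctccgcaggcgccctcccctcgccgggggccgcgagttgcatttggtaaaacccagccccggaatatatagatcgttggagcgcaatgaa
HS3ST3A1, chr17:13601880-13602179, minus strand: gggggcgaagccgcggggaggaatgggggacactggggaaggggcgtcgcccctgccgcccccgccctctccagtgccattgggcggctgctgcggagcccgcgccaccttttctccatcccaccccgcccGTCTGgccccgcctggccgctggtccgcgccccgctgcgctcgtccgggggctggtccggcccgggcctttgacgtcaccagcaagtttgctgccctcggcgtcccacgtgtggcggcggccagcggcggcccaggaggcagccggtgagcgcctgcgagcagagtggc
DSEL, chr18:67516671-67516970, minus strand: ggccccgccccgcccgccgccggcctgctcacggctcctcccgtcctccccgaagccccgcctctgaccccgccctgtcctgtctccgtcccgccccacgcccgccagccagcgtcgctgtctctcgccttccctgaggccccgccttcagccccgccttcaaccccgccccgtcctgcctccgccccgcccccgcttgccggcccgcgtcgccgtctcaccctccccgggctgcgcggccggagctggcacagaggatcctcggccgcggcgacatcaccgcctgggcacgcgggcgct
XYLT1, CHST11 and HS3ST3A1 each hold 1 match in this window, and DSEL holds none. RefSeq windows were found for 37 of the 42 genes, 52 windows in all counting alternative starts. CAGAC was in 42.3% of the member windows and in 45.3% of all 35116 windows, so a match was no more frequent among the members. It was in a window of 6 of the 9 higher members, 11 of 20 members within 1.5-fold and 0 of 3 lower members with a window. These counts take a match in any window of a gene, and no such share over all genes was computed. Nothing is read from them. The palindrome GTCTAGAC was in 0 member windows and in 0.202% of all windows. The AP-1 motif TGANTCA was in 5.77% of member windows (3 members) and in 7.71% of all windows. For the TEAD motif GGAATG the shares were 13.5% of member windows (7 members) and 14.03% of all windows. All motifs were sought on both strands, and a match is a string of letters and not evidence of binding.

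Among the linker enzymes, XYLT1 alone was past 1.5-fold. XYLT1, the xylosyltransferase that starts the linker, spans 369 kb of chromosome 16 (17101769 to 17470960) and had 299 CPM in TGFB1 and 38.6 CPM in untreated, 7.73-fold higher (95% interval 7.53 to 7.93). XYLT2, the second xylosyltransferase, had 4.90 CPM in TGFB1 and 4.80 CPM in untreated, just under the level needed to count as measured. The share of XYLT1 in the UMIs of both xylosyltransferases was 98.4% in TGFB1 and 89.0% in untreated. The shares compare the same gene pair between libraries, since 3′ UMI counts do not give a scale on which different genes can be set side by side.

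The other linker genes stood close together. B3GALT6, which adds the second galactose, had 20.3 CPM in TGFB1 and 14.4 CPM in untreated, a ratio of 1.41 (1.34 to 1.48). B4GALT7, which adds the first galactose, had 20.7 CPM in TGFB1 and 21.7 CPM in untreated. B3GAT3, which closes the linker with glucuronic acid, had 22.3 CPM in TGFB1 and 23.2 CPM in untreated. FAM20B, the kinase that phosphorylates the linker xylose, had 44.8 CPM in TGFB1 and 53.0 CPM in untreated, 1.18-fold lower (1.15 to 1.22). Summed over the xylosyltransferases, the level was 6.99-fold higher in TGFB1, with XYLT1 UMIs making up most of both sums. The galactosyltransferases together had 41.0 CPM in TGFB1 and 36.1 CPM in untreated.

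The difference in XYLT1 was visible in most cells and not only in the sums. With each cell thinned to 7500 UMIs, 73.4% of TGFB1 cells (exact binomial 95% interval 72.5 to 74.3) and 21.0% of untreated cells (20.1 to 22.0) had an XYLT1 UMI. At least 5 UMIs were found in 11.5% of TGFB1 cells and 0.144% of untreated cells. Without thinning the shares were 82.4% in TGFB1 and 40.7% in untreated. Thinning kept 9330 TGFB1 and 7646 untreated cells and left out 3225 and 455 shallower ones. No cell type that should lack these enzymes was present, so no background share from free RNA could be given beside the shares of cells.

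In the chondroitin/dermatan group, 4 of 16 measured genes were at least 1.5-fold higher in TGFB1 (the synthases CHSY1 and CHSY3 and the sulfotransferases CHST8 and CHST11). CHST8 is counted here by the list, although it is known best for acting on glycoprotein hormones. Another 3 were at least 1.5-fold lower (CSGALNACT1, DSEL and CHST14). The chain is started by CSGALNACT1 and CSGALNACT2, which add the first N-acetylgalactosamine. CSGALNACT1 had 3.92 CPM in TGFB1 and 9.22 CPM in untreated, 2.35-fold lower (2.16 to 2.56), and reached the mean of 5 CPM through the untreated library alone. CSGALNACT2 had 79.0 CPM in TGFB1 and 57.1 CPM in untreated, a ratio of 1.38 (1.35 to 1.42). The pair lay on opposite sides of a ratio of 1, and CSGALNACT1 gave 4.73% of their UMIs in TGFB1 and 13.9% in untreated.

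Chain growth depends on the synthases CHSY1 and CHSY3 and the polymerising factors CHPF and CHPF2. CHSY1 had 52.2 CPM in TGFB1 and 28.8 CPM in untreated, 1.81-fold higher (1.75 to 1.87). CHSY3 had 17.4 CPM in TGFB1 and 9.68 CPM in untreated, 1.80-fold higher (1.70 to 1.91). The synthases kept a near-constant proportion, with CHSY1 at 75.0% of their UMIs in TGFB1 and 74.9% in untreated. CHPF had 73.8 CPM in TGFB1 and 67.5 CPM in untreated, and CHPF2 had 24.3 CPM in TGFB1 and 20.5 CPM in untreated, both within 1.5-fold.

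Chondroitin 4-O-sulfation is carried out by CHST11, CHST12 and CHST13, and their ratios lay on opposite sides of 1. CHST11, on chromosome 12 (104456948 to 104762014), had 77.1 CPM in TGFB1 and 28.2 CPM in untreated, 2.73-fold higher (2.65 to 2.82). CHST12 had 20.8 CPM in TGFB1 and 25.4 CPM in untreated, 1.22-fold lower (1.17 to 1.28). CHST13 was at the edge of detection, with 10 UMIs in TGFB1 and 4 UMIs in untreated. CHST11 gave 78.8% of the UMIs of CHST11 and CHST12 in TGFB1 and 52.6% in untreated. After thinning, 36.5% of TGFB1 cells and 16.6% of untreated cells had a CHST11 UMI, against 51.0% and 32.7% without thinning.

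CHST8, known best as the sulfotransferase that 4-O-sulfates N-acetylgalactosamine on glycoprotein hormones, had the highest ratio of the measured members. It had 2246 UMIs (10.7 CPM) in TGFB1 and 60 UMIs (0.355 CPM) in untreated, a ratio of 30.3 (23.4 to 39.8). It passed the 5 CPM mean through the TGFB1 library alone. A CHST8 UMI was found in 5.73% of thinned TGFB1 cells and 0.209% of thinned untreated cells, and in 9.62% and 0.518% without thinning. CHST15, at 9.40 CPM in TGFB1, and NDST2, at 10.5 CPM, had a UMI in 6.37% and 7.51% of thinned TGFB1 cells. The CHST8 share was thus near that of members at a like level. How many cells carried CHST8 cannot be told at this depth.

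The 6-O-sulfotransferases of chondroitin and the enzyme that makes doubly sulfated units were within 1.5-fold. CHST3 had 15.1 CPM in TGFB1 and 11.1 CPM in untreated, a ratio of 1.35 (1.28 to 1.43). CHST7 had 6.67 CPM in TGFB1 and 6.12 CPM in untreated. CHST15, which adds a 6-O-sulfate to 4-O-sulfated N-acetylgalactosamine, had 9.40 CPM in TGFB1 and 9.78 CPM in untreated, with an interval of the ratio (0.900 to 1.03) that includes 1.

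Of the 4 genes of the dermatan steps, DSEL and CHST14 were past 1.5-fold lower, while DSE and UST were within it. DSE, an epimerase that converts glucuronic into iduronic acid, had 150.3 CPM in TGFB1 and 164 CPM in untreated, 1.09-fold lower (1.07 to 1.11). DSEL, its paralog on chromosome 18 (67506587 to 67516720), had 79.2 CPM in TGFB1 and 158 CPM in untreated, 1.99-fold lower (1.96 to 2.03). DSE gave 65.5% of the UMIs of the pair in TGFB1 and 50.9% in untreated. CHST14, the sulfotransferase that 4-O-sulfates N-acetylgalactosamine beside iduronic acid, had 8.79 CPM in TGFB1 and 14.6 CPM in untreated, 1.66-fold lower (1.56 to 1.76), and was within 1.5-fold under TMM and median-of-ratios scaling. UST, which 2-O-sulfates the uronic acid, had 58.1 CPM in TGFB1 and 85.8 CPM in untreated, 1.48-fold lower (1.44 to 1.51), just short of the 1.5-fold threshold. All 4 of these genes lay below 1 in ratio, although DSE lay above 1 under TMM and median-of-ratios scaling. The median log2 ratio over all measured genes was -0.10, so a ratio below 1 was the more common side. A DSEL UMI was in 42.9% of thinned TGFB1 cells and 64.3% of thinned untreated cells, and in 59.8% and 86.3% without thinning.

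In the heparan group, 3 of 12 measured genes were at least 1.5-fold higher in TGFB1 (NDST1, HS3ST3A1 and HS3ST3B1), and GLCE was lower. The 4 genes of chain initiation and polymerisation were within 1.5-fold. EXT1, which with EXT2 forms the heparan polymerase, had 639.8 CPM in TGFB1 and 656 CPM in untreated, a ratio of 0.975 (0.967 to 0.983). EXT2 had 77.1 CPM in TGFB1 and 57.3 CPM in untreated, a ratio of 1.34 (1.31 to 1.38), and passed 1.5-fold under median-of-ratios scaling. EXTL3, which adds the first N-acetylglucosamine, had 7.20 CPM in TGFB1 and 10.0 CPM in untreated, 1.39-fold lower (1.30 to 1.49). EXTL2, another member of the exostosin-like family, had 26.4 CPM in TGFB1 and 24.1 CPM in untreated. Summed over these 4 genes the levels were 750.5 CPM in TGFB1 and 747.7 CPM in untreated, with EXT1 UMIs making up most of both sums.

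NDST1 and NDST2 replace the acetyl group of glucosamine by sulfate, the step on which later heparan modification depends. NDST1 had 71.2 CPM in TGFB1 and 40.2 CPM in untreated, 1.77-fold higher (1.72 to 1.82). NDST2 had 10.5 CPM in both libraries, with a ratio of 0.996 (0.935 to 1.06). NDST1 gave 87.2% of the UMIs of the pair in TGFB1 and 79.2% in untreated, and it had a UMI in 39.2% of thinned TGFB1 cells and 24.6% of thinned untreated cells.

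The epimerase and the 2-O- and 6-O-sulfation genes of heparan were at or below their untreated levels, although HS6ST1 lay just above 1 in ratio under median-of-ratios scaling. GLCE, which makes iduronic acid in heparan, had 6.93 CPM in TGFB1 and 10.4 CPM in untreated, a ratio of 0.667 (0.621 to 0.715), just past the 1.5-fold threshold, and it was within 1.5-fold in 5 of the 9 settings of scaling and cells tried. HS2ST1, the uronyl 2-O-sulfotransferase, had 31.0 CPM in TGFB1 and 38.6 CPM in untreated, a ratio of 0.803 (0.775 to 0.831). HS6ST1, a 6-O-sulfotransferase, had 7.59 CPM in TGFB1 and 8.46 CPM in untreated. HS6ST2 had 7 UMIs in TGFB1 and 2 UMIs in untreated, too few to set apart.

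Of the 3-O-sulfotransferases, which add a rare heparan sulfate modification, the measured HS3ST3A1 and HS3ST3B1 were higher in TGFB1. HS3ST3A1, on chromosome 17 (13494032 to 13601929), had 302 CPM in TGFB1 and 86.8 CPM in untreated, 3.48-fold higher (3.42 to 3.55). HS3ST3B1, its close paralog on the same chromosome (14301081 to 14349404), had 30.0 CPM in TGFB1 and 14.2 CPM in untreated, 2.12-fold higher (2.02 to 2.22). The sulfotransferase domains of these paralogs are known to be nearly identical, and how reads were split between them could not be assessed from counts. HS3ST2 had 1561 UMIs (7.47 CPM) in TGFB1 and 31 UMIs (0.183 CPM) in untreated, a ratio of 40.7 (28.6 to 60.1). Its mean lay under 5 CPM, so it is outside the counts of higher members. Outside the 42 genes, HS3ST5 had 10 UMIs in TGFB1 and 13 in untreated, HS3ST4 had 0 UMIs in TGFB1 and 2 in untreated, and HS3ST1 and HS3ST6 had 0 UMIs in both.

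Summed over HS3ST2, HS3ST3A1 and HS3ST3B1, levels were 339.9 CPM in TGFB1 and 101 CPM in untreated, 3.36-fold higher (3.31 to 3.42). HS3ST3A1 UMIs made up most of both sums. A HS3ST3A1 UMI was in 76.5% of thinned TGFB1 cells and 39.1% of thinned untreated cells, and in 84.7% and 63.6% without thinning. At least 5 HS3ST3A1 UMIs were in 13.2% of thinned TGFB1 cells and 1.01% of thinned untreated cells. HS3ST2 had a UMI in 4.45% of thinned TGFB1 cells and 0.0916% of thinned untreated cells. HS6ST1, at a like TGFB1 level of 7.59 CPM, had one in 5.53% of thinned TGFB1 cells. A low share of cells at such a level is thus not particular to HS3ST2.

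The extracellular endosulfatases, which strip 6-O-sulfate from finished heparan chains, were lower or level. SULF1 had 452 CPM in TGFB1 and 586 CPM in untreated, 1.30-fold lower (1.29 to 1.31). SULF2 had 2.34 CPM in both libraries and was not measured.

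Of the donor genes, UGDH alone was past 1.5-fold. UGDH, which makes UDP-glucuronic acid for chondroitin, heparan and hyaluronan, had 104 CPM in TGFB1 and 64.6 CPM in untreated, 1.61-fold higher (1.57 to 1.65). UXS1, which turns that product into the UDP-xylose used to start the linker, had 17.9 CPM in TGFB1 and 22.0 CPM in untreated, 1.23-fold lower (1.17 to 1.29). The PAPS synthases stood level. PAPSS1 had 46.1 CPM in TGFB1 and 44.1 CPM in untreated, and PAPSS2 had 134 CPM in TGFB1 and 138 CPM in untreated.

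The neighbouring pathways were read in the same way from lists of related genes. Their counts stand beside the same shares of all measured genes, 8.15% at least 1.5-fold higher and 12.9% lower, and nothing is read from counts this small. Of 9 measured transporters of sulfate and nucleotide sugars, 2 (22.2%) were higher in TGFB1 and 0 lower: the sulfate transporter SLC26A2, with 22.2 CPM in TGFB1 and 14.1 CPM in untreated, and the UDP-sugar transporter SLC35D1, with 35.2 CPM in TGFB1 and 23.0 CPM in untreated. Of 10 measured sugar donor precursor genes, 2 (20%) were higher and 0 lower. These were GFPT1, the entry enzyme of the hexosamine pathway, with 162 CPM in TGFB1 and 99.1 CPM in untreated, and PGM3 of the same pathway, with 110.3 CPM in TGFB1 and 69.1 CPM in untreated. The list medians were 0.22 and 0.28 on the log2 scale, beside -0.10 over all measured genes.

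Core proteins that carry the chains differed in both directions. Of 5 measured chondroitin/dermatan sulfate cores, VCAN (versican) was 2.78-fold higher, at 1312 CPM in TGFB1 and 473 CPM in untreated, and DCN (decorin) was 2.61-fold lower, at 771 CPM in TGFB1 and 2010 CPM in untreated. Of 10 measured heparan sulfate cores, SDC1 (syndecan 1) had 70.2 CPM in TGFB1 and 22.5 CPM in untreated and GPC6 (glypican 6) had 202 CPM in TGFB1 and 65.2 CPM in untreated, both higher. TGFBR3 (betaglycan), a TGFB co-receptor that can carry chains, had 10.6 CPM in TGFB1 and 65.3 CPM in untreated, 6.17-fold lower.

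Hyaluronan, the glycosaminoglycan made without a core protein or sulfate, had 4 measured genes. CEMIP2 had 149 CPM in TGFB1 and 47.5 CPM in untreated, and the synthase HAS2 had 104 CPM in TGFB1 and 66.9 CPM in untreated, 3.13-fold and 1.56-fold higher. CEMIP, which promotes hyaluronan breakdown, had 456 CPM in TGFB1 and 1737 CPM in untreated, 3.81-fold lower. Of 14 lysosomal degradation genes, 0 were higher and 1 (7.14%) was lower. This was SGSH, a heparan sulfamidase, at 5.86 CPM in TGFB1 and 10.6 CPM in untreated, with a list median of -0.29.

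Golgi genes outside the pathway were largely within 1.5-fold. Of 10 measured N-glycan enzymes, B4GALT1 was higher, at 272 CPM in TGFB1 and 113 CPM in untreated, and MAN1A1 was lower, at 45.9 CPM in TGFB1 and 81.9 CPM in untreated. Of 16 Golgi trafficking genes, GOLGA2 and COPA were higher, with ratios of 1.54 and 1.505, and 0 were lower. Of 2 measured keratan and other Golgi sulfotransferases, TPST1, a tyrosylprotein sulfotransferase, was lower at 128 CPM in TGFB1 and 221 CPM in untreated. A list of 11 other heparan enzymes had 0 measured members.

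Across the clusters deposited by the authors, member levels varied within each library as well as between them. Clusters 0, 3, 4, 5, 8 and 10 held mostly TGFB1 cells and clusters 1, 2 and 6 mostly untreated cells, so library and cluster cannot be told apart there; clusters 7 and 9 held over 100 cells of each library. Clusters were formed on the expression of these cells, so differences between them are a description. Within TGFB1, XYLT1 was highest in cluster 8 at 526 CPM and cluster 3 at 450.0 CPM, and lowest in cluster 4 at 127 CPM and in the 56 TGFB1 cells of cluster 1 at 62.7 CPM. Within untreated it ran between 18.7 CPM in cluster 2 and 79.8 CPM in cluster 9. Among clusters with at least 50 cells of a library, the highest untreated XYLT1 level thus lay above only the lowest TGFB1 level.

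Other members had their own order over clusters. CHST8 was highest in TGFB1 cluster 3, at 21.5 CPM, and was at 6.14 CPM in TGFB1 cluster 0. HS3ST2 had 11.6 CPM in TGFB1 cluster 3 and 10.4 CPM in cluster 8. CSGALNACT1 went the other way within TGFB1, with 1.91 CPM in cluster 3 and 14.1 CPM in cluster 7. SULF1 was highest in cluster 9 of both libraries, at 1716 CPM in TGFB1 and 1269 CPM in untreated, and lowest in TGFB1 cluster 8 at 179 CPM. CHSY3 had 52.0 CPM in TGFB1 cluster 9 and 40.6 CPM in untreated cluster 9, against 6.41 CPM in TGFB1 cluster 4 and 2.996 CPM in untreated cluster 2.

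**Figure D2:**
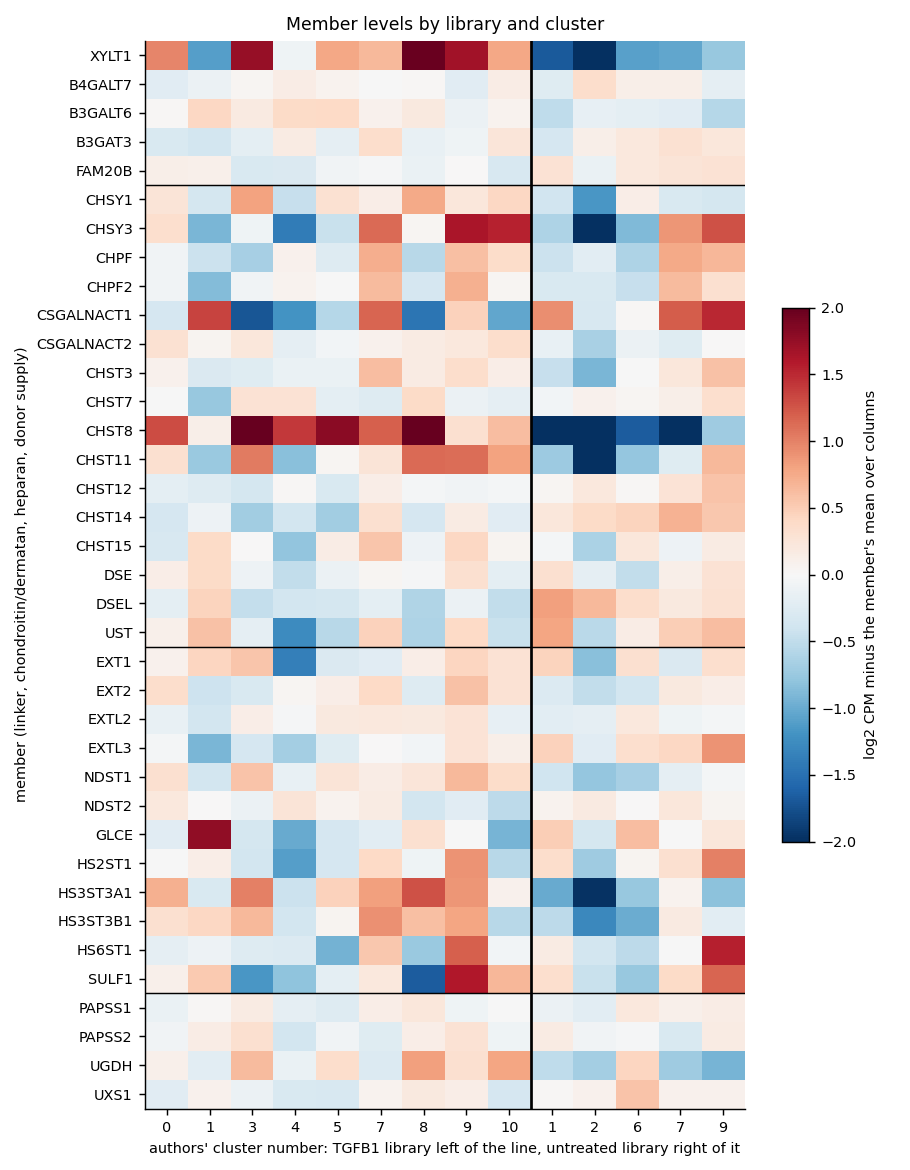
Level of the 37 measured members in each of the authors' clusters with at least 50 cells of a library, TGFB1 columns left of the line and untreated columns right of it, as log2 CPM minus the member's mean over columns, with colours ending at -2 and 2. XYLT1 and CHST8 are red in most TGFB1 columns and blue in the untreated ones, and TGFB1 cluster 4 and untreated cluster 2 are blue for CHSY3, EXT1 and UST.

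In each library a cluster was low in the members that span much genomic sequence. Cluster 4, with 19.3% of TGFB1 cells, and cluster 2, with 38.2% of untreated cells, also had low levels of the nuclear RNA MALAT1, at 7845 CPM and 9917 CPM, beside 21714 CPM in TGFB1 cluster 0 and 24102 CPM in untreated cluster 1. For cluster 4 over cluster 0 within TGFB1, 15 of the 16 measured members spanning at least 100 kb had a log2 ratio below 0 and their median was -0.88; among the 21 shorter members the median was -0.09. For cluster 2 over cluster 1 within untreated, the median was -1.01 in the long members and -0.17 in the short ones. CHSY3, which spans 283 kb, had ratios of 0.30 and 0.27 in these contrasts, and B4GALT7, which spans 10.2 kb, had 1.29 and 1.51.

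Over the 37 members, log2 ratio and log span had a Pearson r of -0.77 (Spearman rho -0.82) in TGFB1 and -0.82 (rho -0.85) in untreated. All measured genes with a span, 10241 of them, had an r of -0.70 in TGFB1 and -0.71 in untreated, so the pattern was no feature of these enzymes. The points share the same cells, and genes are not independent replicates. Between the whole libraries, TGFB1 over untreated, the members had an r of 0.21 (rho -0.00) and all genes an r of 0.07 (rho 0.12).

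**Figure D3:**
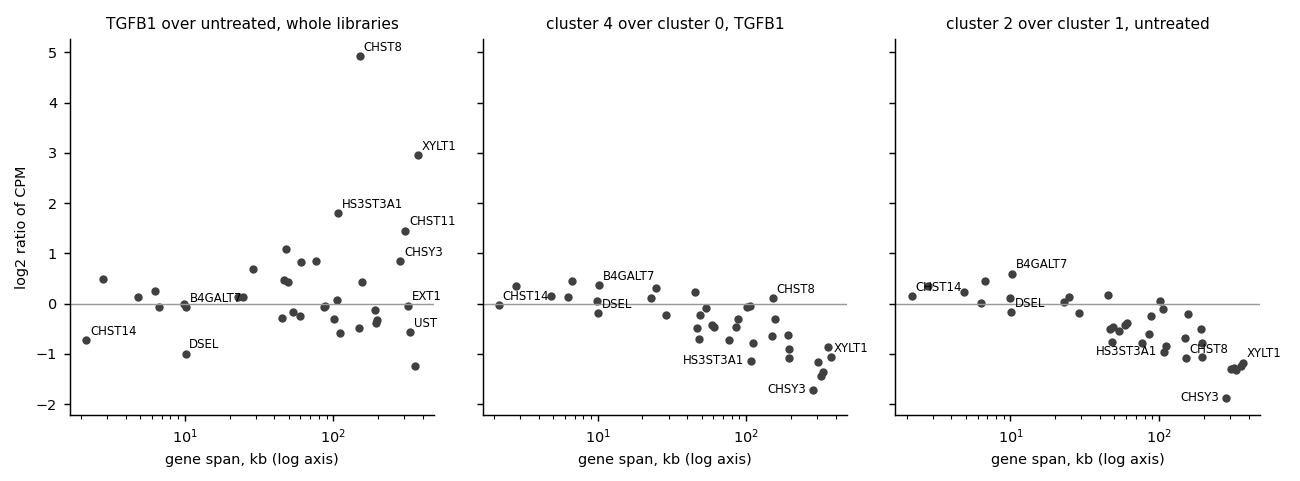
Log2 ratio of CPM against genomic span in kb (log axis) for the 37 measured members, for TGFB1 over untreated (left), cluster 4 over cluster 0 within TGFB1 (middle) and cluster 2 over cluster 1 within untreated (right). The cluster contrasts slope down with span, with CHSY3 lowest, and the contrast of libraries shows no such slope.

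The 13 members past 1.5-fold were then compared between like clusters, chosen after their values were seen. The 2 pairs held 7846 and 2421 TGFB1 cells and 3687 and 3094 untreated cells, most of each library. The members were picked by their ratios in largely the same cells. Their passing here was therefore close to fixed and is no separate support. In clusters 0 and 3 of TGFB1 over cluster 1 of untreated, all 9 higher and all 4 lower members were past 1.5-fold. In all, 10 members were higher (beside 8.33% of all genes) and 7 were lower (beside 14.2%), the additions being B3GALT6, UST, EXTL3 and SULF1. The low-MALAT1 clusters were cluster 4 of TGFB1 over cluster 2 of untreated. In them 8 of the 9 higher members and all 4 lower ones were past 1.5-fold. The exception was UGDH with a ratio of 1.47 (1.40 to 1.55). There 9 members were higher (beside 7.32%) and 5 lower (beside 14.1%), the additions being CHST3 and UST.

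XYLT1 had 342 CPM in TGFB1 clusters 0 and 3 and 42.1 CPM in untreated cluster 1, 8.12-fold higher, and 127 CPM in TGFB1 cluster 4 and 18.7 CPM in untreated cluster 2, 6.77-fold higher. Between clusters 0 and 3 and cluster 1, HS3ST3A1 was 3.61-fold higher, at 342 CPM in TGFB1 and 94.8 CPM in untreated, and 2.90-fold higher in the low-MALAT1 clusters, at 141 CPM in TGFB1 and 48.7 CPM in untreated. DSEL was 2.17-fold lower between clusters 0 and 3 and cluster 1, at 79.8 CPM in TGFB1 and 173 CPM in untreated, and in the low-MALAT1 clusters 2.04-fold lower at 75.9 CPM in TGFB1 and 154 CPM in untreated. These genes were named with their values known, and nothing is read from how close the 2 pairs of clusters stood for them. CSGALNACT1 differed more between the pairs. It was 3.22-fold lower between clusters 0 and 3 and cluster 1, and 1.84-fold lower in the low-MALAT1 clusters.

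Within clusters held by both libraries the ratios were smaller for most of these members. In cluster 7 (303 TGFB1 and 274 untreated cells), XYLT1 had 210.3 CPM in TGFB1 and 65.6 CPM in untreated, 3.21-fold higher (2.88 to 3.57). Of all 37 measured members, 5 were higher there and 0 lower, beside 4.58% and 4.67% of all genes. One of the higher was CHST15, which was within 1.5-fold in the whole libraries. In cluster 9 (183 TGFB1 and 108 untreated cells), XYLT1 had 431 CPM in TGFB1 and 79.8 CPM in untreated, 5.40-fold higher (4.58 to 6.41). Of all 37 measured members, 6 were higher there and 3 lower, beside 9.83% and 13.4% of all genes. The lower were CSGALNACT1 and also CHST12 and EXTL3, which were within 1.5-fold in the whole libraries. No minimum of UMIs was set within clusters. CHST8 counted as higher in cluster 9 on 10 UMIs in TGFB1 and 3 in untreated, with an interval of 0.52 to 11.5. EXTL3 counted as lower there on 33 UMIs in TGFB1 and 31 in untreated, with an interval of 0.39 to 1.10. Of the 9 members higher in the whole libraries, 8 had an interval above 1 in cluster 7 and 7 in cluster 9. Of the 4 lower in the whole libraries, 1 had an interval below 1 in cluster 7 and 2 in cluster 9.

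CHST11 had 66.3 CPM in TGFB1 and 46.7 CPM in untreated in cluster 7, and 121 CPM in TGFB1 and 87.4 CPM in untreated in cluster 9, ratios of 1.42 and 1.38 beside 2.73 in the whole libraries. HS3ST3A1 had 336 CPM in TGFB1 and 201 CPM in untreated in cluster 7, a ratio of 1.67, and 350.1 CPM in TGFB1 and 108 CPM in untreated in cluster 9, a ratio of 3.24. DSEL had ratios of 0.76 and 0.74 in clusters 7 and 9, and the CSGALNACT1 ratio was 0.96 (0.72 to 1.29) in cluster 7 and 0.49 (0.29 to 0.83) in cluster 9. In the 56 TGFB1 cells placed in cluster 1, a cluster mostly of untreated cells, XYLT1 was 1.49-fold higher (1.16 to 1.88) than in the untreated cells of that cluster, and CHST11 stood at a ratio of 0.99 (0.70 to 1.37). GLCE, lower in the whole libraries, was higher there, with 29.5 CPM in TGFB1 and 12.2 CPM in untreated, a ratio of 2.43 (1.66 to 3.44), and CSGALNACT1 had a ratio of 1.35 (0.80 to 2.15). Of the 9 higher members, 4 had an interval above 1 in cluster 1, and of the 4 lower members 1 had an interval below 1. Of all 37 measured members, 5 were higher and 2 lower in cluster 1, beside 3.88% and 6.73% of all genes. The lower were CHST7 and EXTL3, with 4 and 5 UMIs in TGFB1, both within 1.5-fold in the whole libraries.

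**Figure D4:**
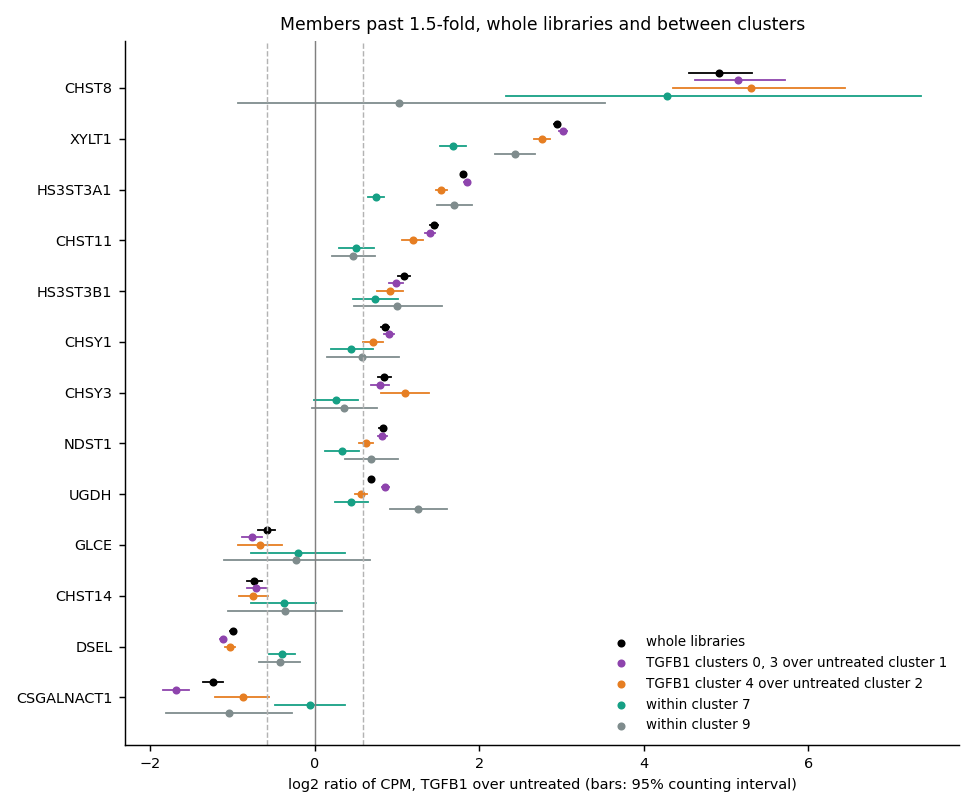
Log2 ratio of CPM, TGFB1 over untreated, with 95% counting intervals for the 13 members past 1.5-fold, in the whole libraries, between 2 pairs of like clusters and within clusters 7 and 9; dashed lines mark 1.5-fold. The points of all higher members lie right of 0 in all 5 contrasts. The intervals of CHSY3 within clusters 7 and 9 and of CHST8 within cluster 9 include 0. CHST11, CHSY1 and DSEL lie closer to 0 within clusters 7 and 9 than elsewhere.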

How the data were processed

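Single-cell RNA was measured in 1 TGFB1 and 1 untreated library. The labels' protocols describe detachment by trypsin and freezing of the cells before the 10x run. Per the submitters' processing notes, Cell Ranger 9.0.1, Seurat and GRCh38 were used, with no roles named. The sources used here do not name the annotation or the counting settings. The authors deposited raw UMI counts for each gene in each cell. Their deposited cell table lists the library, the cluster number, counts of UMIs and of detected genes, and mitochondrial UMIs as a percent. The lowest gene count was 502 and the highest mitochondrial percent in the deposited cells 5.00. No further cells were removed here, no doublet caller was run, and any doublets were kept.

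UMIs were summed over the cells of a library, or of a library and cluster, and divided by their total to give CPM. Intervals at 95% are exact: conditional binomial (Clopper-Pearson) for ratios, binomial for shares of cells. These cover counting error only; with 1 library a group no test was possible. A count of 0 would allow 3 UMIs, or 0.0144 CPM in TGFB1 and 0.0178 CPM in untreated. The calculation was tested on simulated data.

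The members and lists were chosen with earlier results of these data known. All measured members are named, and of every other list up to 3 genes with the largest log2 ratio among those past 1.5-fold. Clusters are the authors' and are called by number. Gene positions, spans and promoters come from RefSeq tables of GRCh38.p14. Alternatives were other scalings, cell weights, thinning, level minimums, thresholds and subsets of cells. Calculations used edgeR 4.0.16 (TMM factors only) under R 4.3.3, and pandas 2.3.3, scipy 1.17.1, numpy 2.4.6 and matplotlib 3.10.9 under Python 3.11.15.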

Additional observations from a re-analysis of the deposited data

Results flagged for a closer look

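SULF1 differed in direction between clusters held by both libraries. Its ratio of TGFB1 over untreated was 1.14 in cluster 1 (56 TGFB1 and 3687 untreated cells) and 1.35 in cluster 9, above 1, and 0.883 in cluster 7, below 1, beside 0.771 in the whole libraries. In CPM it had 816 in TGFB1 and 717 in untreated in cluster 1, 1716 in TGFB1 and 1269 in untreated in cluster 9, and 655 in TGFB1 and 741 in untreated in cluster 7. Each interval excluded 1, but these intervals cover counting error only and leave out the spread between cells. SULF1 was uneven over cells, with a median of 2 UMIs and a maximum of 95 UMIs in thinned TGFB1 cells. With 1 library a group the difference between clusters was not tested.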

How the results depend on the processing

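No ratio of a member past 1.5-fold changed sign in the 9 settings of scaling and cells tried, and 11 of these 13 members were past 1.5-fold in all 9. The exceptions were CHST14, which was within 1.5-fold under TMM and median-of-ratios scaling, and GLCE, which was within it in 5 settings. TMM factors and median-of-ratios size factors shifted the median of all genes by 0.15 and 0.19 on the log2 scale. Under TMM, 12 members were higher and 2 lower, with medians of 0.10 (linker), 0.28 (chondroitin/dermatan) and 0.13 (heparan); under median-of-ratios, 13 were higher (beside 12.6% of all genes) and 2 lower (beside 8.09%), with medians of 0.13, 0.32 and 0.17. The linker and heparan medians thus changed sign with scaling. The linker median was 0.057 with each cell weighted equally and 0.030 without clusters 2 and 4, a setting chosen after seeing the data. The minimum mean of 5 CPM was applied anew in each setting. It left 10608 and 10764 measured genes in these settings, beside 10579 as reported. These medians therefore need not cover the same linker genes. A minimum mean of 20 CPM left 7 higher (beside 9.29% of all genes) and 1 lower (beside 10.0%) members and a heparan median of 0.28, with fewer genes tested. A 2-fold threshold left 5 higher (beside 3.37%) and 1 lower (beside 5.19%). B3GALT6, CSGALNACT2, CHST3, UST and EXT2 passed 1.5-fold in at least 1 setting only. No paired analysis was possible because each group had 1 library and no replicate numbers, and no replicate could be left out. Depth limits CHST13 and HS6ST2, whose few UMIs allow no direction.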
